A study of Homo sapiens with 4 samples.

Results

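The genes of protein entry into the endoplasmic reticulum (ER) and of N-glycosylation were followed in cells labelled NB4 after knockdown of LDB1, an adaptor that joins LIM-domain and GATA factors into one complex. The 45 members were given by symbol, and all 45 were found among the 28412 genes of the table. RNA-seq of 4 libraries was available, 2 of cells carrying the control vector sh-NC and 2 of cells carrying an shRNA vector against LDB1, sh-LDB1. Both groups were the same line, NB4 being known as an acute promyelocytic leukaemia line, the study's methods describe puromycin selection of transduced cells, and the labels say neither which of the designed hairpins was sequenced nor how long after transduction the RNA was taken. The labels also do not say whether the 2 libraries of a group came from separate cultures, so the p-values measure only the spread between these libraries, which may be technical.

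Secreted and membrane proteins are marked by a signal sequence that the signal recognition particle (SRP) binds as the chain leaves the ribosome. SRP docks on its receptor at the ER, the chain passes through the SEC61 channel, and signal peptidase removes the signal sequence. Oligosaccharyl transferase then moves a sugar tree, built beforehand on the lipid dolichol by the ALG enzymes, onto asparagines of the chain. Glucosidases trim the tree, and the lectin chaperones calnexin and calreticulin hold the protein while it folds.

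The targeted gene LDB1 was at 135 and 120 FPKM under sh-NC, against 10.2 and 9.47 FPKM under sh-LDB1 (log2 fold change -3.56). FPKM are fragments per kilobase of gene, and the values were already scaled between libraries. Levels of different genes depend on the gene length used. In sh-NC replicate 1, ALG5 was at 13.0 FPKM with 2778 reads and ALG3 at 35.1 FPKM with 1970 reads. Most abundant below means highest in mean FPKM. Between 14863329 and 17364753 reads per library lay behind the table, and between 86 and 15286 reads behind each value of a member. The defining markers did not match the label. ELANE, a promyelocyte protease, was at 0 in 3 libraries and at 0.182 FPKM in the other, MPO and CTSG were not analysed here, and the summed level of the 8 promyelocytic markers found was 11.8 to 12.7 FPKM under sh-NC and 37.9 to 41.5 under sh-LDB1. Of 12 erythroid markers 11 could be tested. All 11 were lower under sh-LDB1 at an adjusted p under 0.05 and a fold change below 0.5, as were 10.3% of all genes tested. Their summed level was 3973 and 4140 FPKM under sh-NC and 388 and 352 under sh-LDB1. Both plasma cell markers found, of 6 listed, were at or under 0.469 FPKM in every library. The 7 mitochondrial transcripts listed were all lower at an adjusted p under 0.05, as were 37.4% of all genes tested. Their median log2 fold change was -0.80. The part of these shifts in the results below was not tested, and in bulk RNA fewer cells of a type and less RNA per cell cannot be told apart.

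Over the 45 members, more rose than fell. Every member passed the filter of a mean of 1 FPKM, and 13300 genes were tested with limma on log2(FPKM + 1), a scale that understates changes of low genes. Called means an adjusted p under 0.05 and a fold change above 2 or below 0.5. In sh-LDB1 7 members were called higher, or 15.6%, where 9.5% of all genes tested were, and 2 were called lower, or 4.44%, where 10.3% of all genes were. Without the fold limit 29 members rose (64.4%, against 29.9% of all genes) and 11 fell (24.4%, against 37.4%). The other 5, SRP68, SRP72, SEC11C, ALG9 and CALR, did not pass. The median log2 fold change of the members was 0.40, and that of all genes tested was -0.08. The groups did not overlap for 43 members, or 95.6%, where they did not for 84.6% of all genes. Scaled by total reads, which moved the median of all genes to 0.03, 11 members were called higher, as were 11.3% of all genes, 2 members were called lower, as were 8.11% of all genes, and the median of the members was 0.51.

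**Figure D1:**
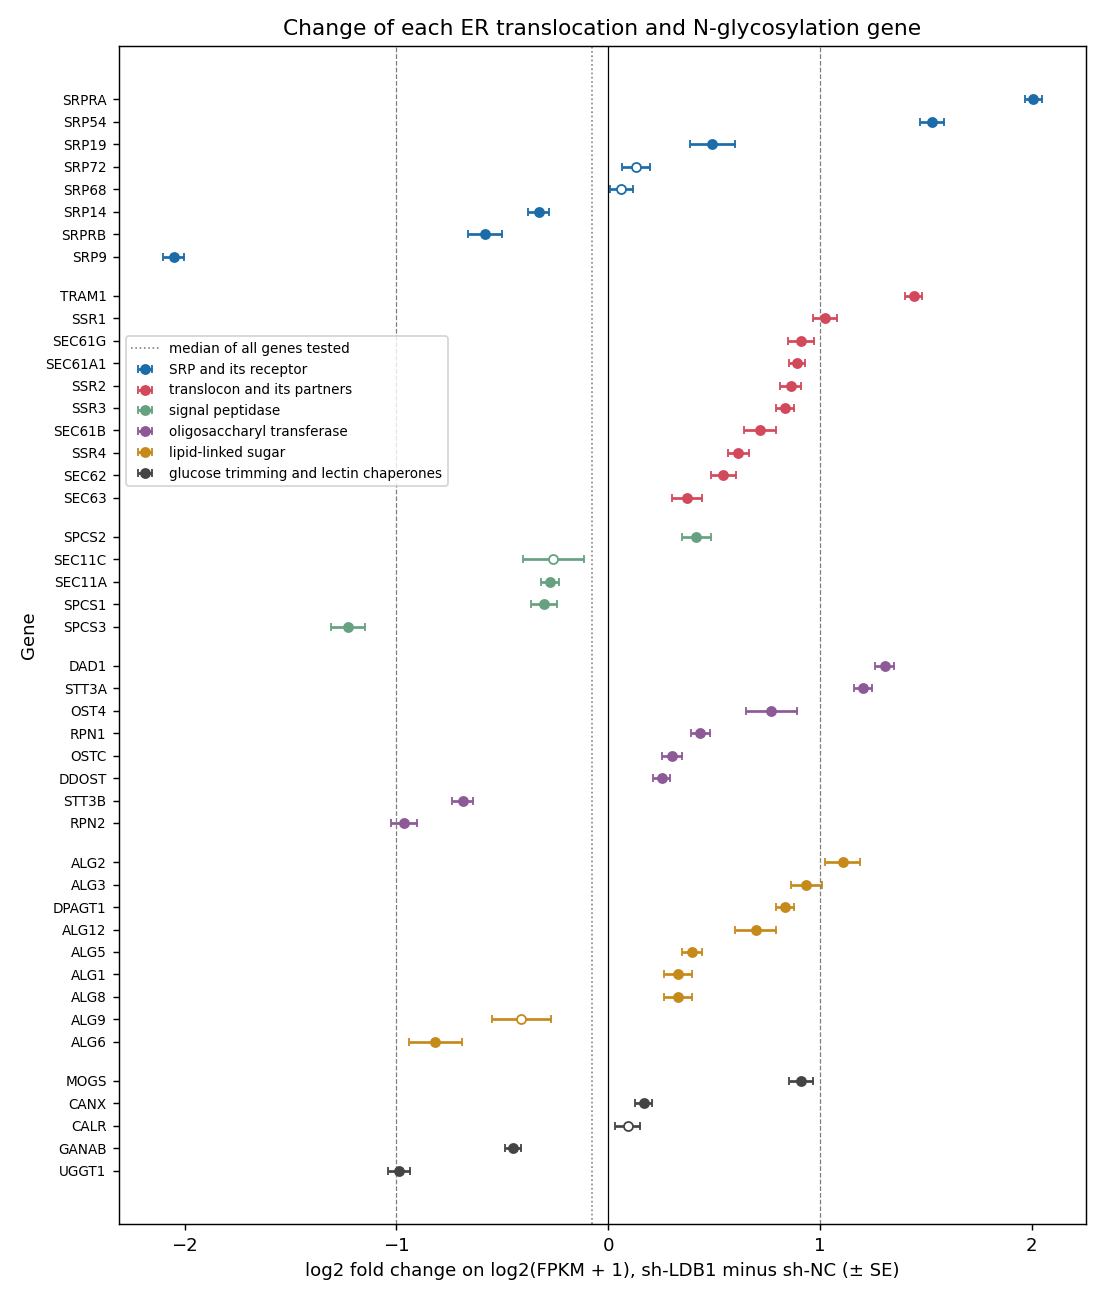
Log2 fold change of each of the 45 members (x axis, sh-LDB1 minus sh-NC on log2(FPKM + 1), bars are standard errors from limma), grouped by step. Filled points passed an adjusted p of 0.05 and open points did not, the dashed lines mark the fold limits and the dotted line the median of all genes, -0.08. All 10 translocon genes lie to the right of 0, while SRP genes run from -2.05 to 2.01.

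The counts by step stand beside the shares of all genes tested without the fold limit, 29.9% rising and 37.4% falling. The 10 translocon genes all rose (100%), and their summed level went from 311 and 312 FPKM to 563 and 561. Of the 8 SRP and receptor genes 3 rose and 3 fell (37.5% each), near the shares of all genes. Their summed level was 417 and 427 FPKM under sh-NC and 389 and 388 under sh-LDB1. Of the 5 signal peptidase genes 1 rose (20%) and 3 fell (60%). Among the 8 oligosaccharyl transferase genes 6 rose (75%) and 2 fell (25%). Among the 9 enzymes of the lipid-linked sugar 7 rose (77.8%) and 1 fell (11.1%). Of the 5 genes of glucose trimming and lectin chaperones 2 rose and 2 fell (40% each), also near the shares of all genes. Their sum was between 595 and 624 FPKM in all 4 libraries. No test of one step against another was made.

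**Figure D2:**
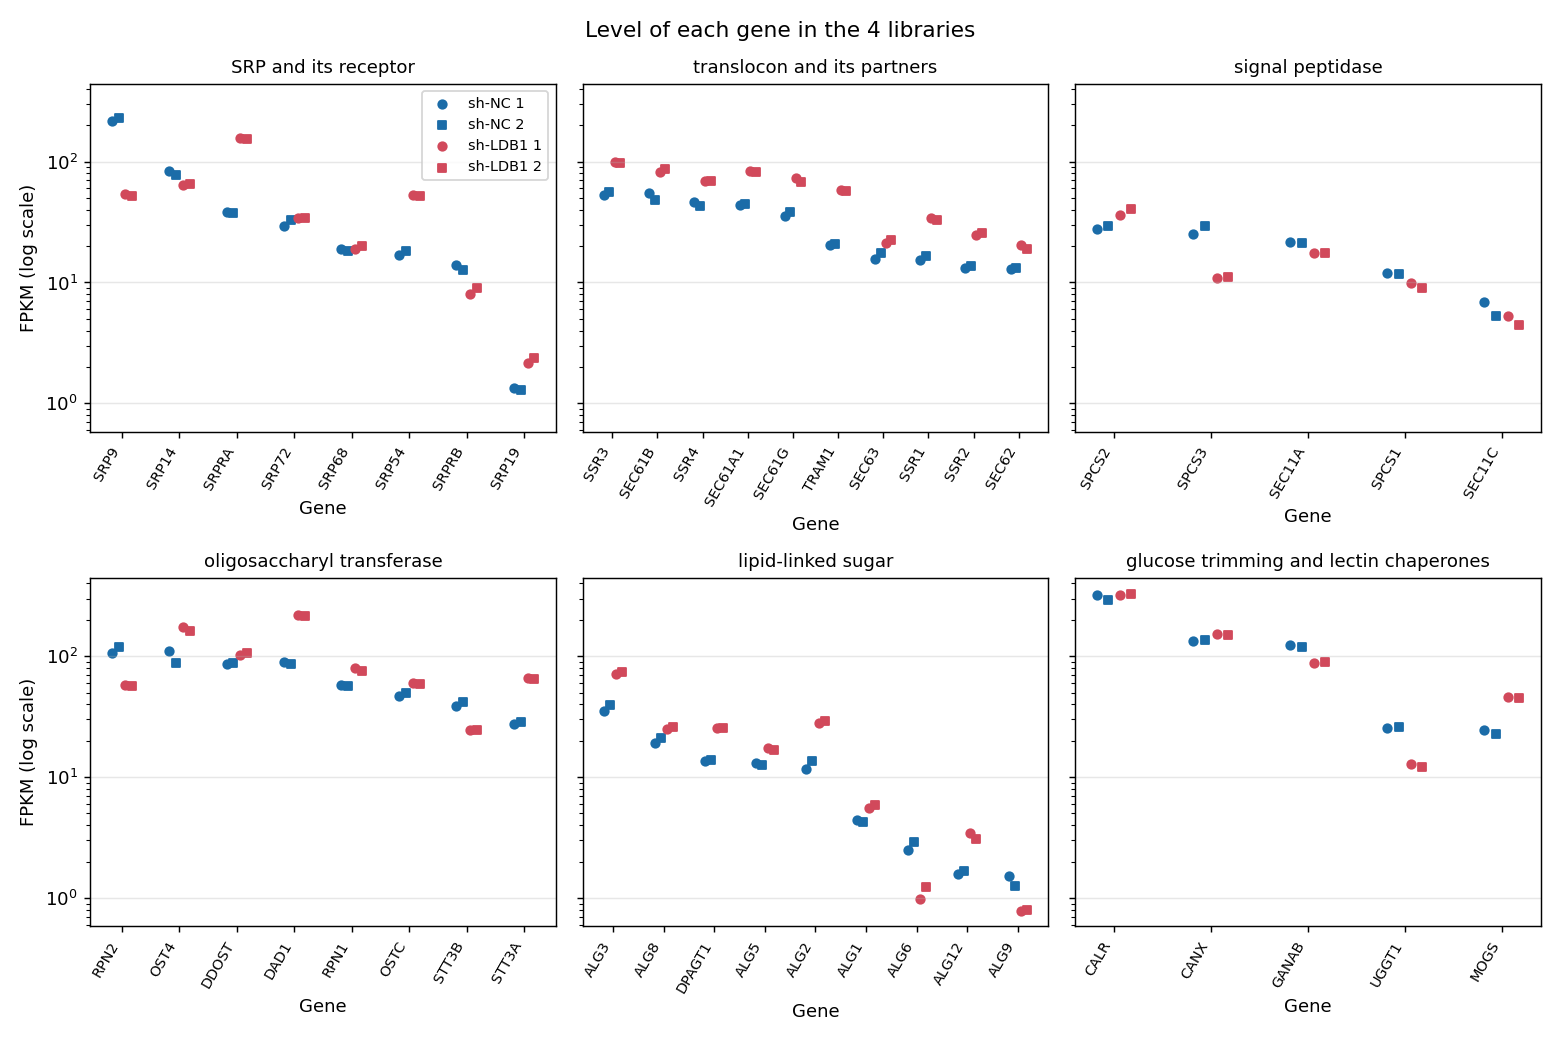
FPKM of every member (y axis, log scale) in the 2 sh-NC libraries (blue) and the 2 sh-LDB1 libraries (red), 1 panel per step, genes ordered by their mean under sh-NC. Libraries of a group lie close together, and SRP9, SRPRA, DAD1 and STT3A stand well apart between groups.

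SRP and its receptor held both extremes of the whole set. SRPRA, the receptor subunit that meets SRP at the ER membrane (chr11:126262938-126269144, minus strand, GRCh38), was at 38.2 and 37.4 FPKM under sh-NC, against 156 and 153 under sh-LDB1. This was the largest rise of the 45, with a log2 fold change of 2.01 ± 0.04 (SE) and an adjusted p of 6.77e-05 in limma. SRP9 (chr1:225777813-225790468, plus strand), which with SRP14 forms the part of SRP that slows elongation, went the other way. It was at 215 and 228 FPKM under sh-NC, against 53.5 and 51.9 under sh-LDB1, a log2 fold change of -2.05 ± 0.05 (adjusted p = 7.35e-05, limma). In sh-NC it was the second most abundant member and under sh-LDB1 it ranked 20.

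SRP54, the GTPase that binds the signal sequence itself, was at 16.8 and 18.4 FPKM under sh-NC, against 52.7 and 52.3 under sh-LDB1. It rose by 1.53 ± 0.06 on the log2 scale (adjusted p = 0.000121, limma). Of the summed FPKM of the 6 SRP proteins, SRP9 held 58.9% and 60.6% under sh-NC but 23.8% and 23.0% under sh-LDB1, while SRP54 went from 4.59% and 4.87% to 23.4% and 23.2%. The partner of SRP9 moved far less: SRP14 was at 83.5 and 78.1 FPKM against 63.7 and 64.6 (log2 fold change -0.33). The ratio of SRP9 to SRP14 was therefore 2.58 and 2.92 under sh-NC and 0.840 and 0.802 under sh-LDB1.

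SRPRB, the membrane anchor of the receptor, fell while SRPRA rose. It was at 13.9 and 12.7 FPKM under sh-NC, against 8.06 and 9.04 under sh-LDB1 (log2 fold change -0.58 ± 0.08, adjusted p = 0.00324, limma). The ratio of SRPRA to SRPRB was 2.75 and 2.95 under sh-NC and 19.4 and 17.0 under sh-LDB1. SRP19, the member with the lowest mean FPKM under sh-NC (1.35 and 1.30), rose by 0.49. SRP68 and SRP72, which bind each other in the particle, had log2 fold changes of 0.06 and 0.13 that did not pass (adjusted p = 0.344 and 0.136, limma).

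At the channel, each of the 10 genes was higher in both sh-LDB1 libraries than in both sh-NC libraries. The groups did not overlap for 84.6% of all genes tested. TRAM1, a membrane protein beside the channel, changed the most, from 20.3 and 20.6 FPKM to 57.7 and 57.0 (log2 fold change 1.44 ± 0.04, adjusted p = 8.31e-05, limma). SSR1, a subunit of the translocon-associated protein complex, was at 15.4 and 16.6 FPKM under sh-NC, against 34.4 and 32.7 under sh-LDB1. Its log2 fold change of 1.02 ± 0.06 (adjusted p = 0.00026, limma) lay just above the limit, and it was 0.97 without sh-NC replicate 1 and 0.99 without sh-LDB1 replicate 1, which ended the call. The most abundant gene of the step was SSR3, another subunit of that complex, at 53.2 and 56.0 against 98.2 and 98.0 FPKM (0.83 ± 0.04, adjusted p = 0.000219, limma).

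The 3 chains of the channel itself moved closely together. SEC61A1, the pore, was at 43.8 and 44.5 FPKM under sh-NC, against 83.0 and 82.4 under sh-LDB1, a log2 fold change of 0.89 ± 0.04 (adjusted p = 0.000151, limma). SEC61B and SEC61G changed by 0.72 and 0.91. SEC61A2, the minor form of the pore and no member, was at 3.36 and 3.65 against 2.77 and 2.77 FPKM (-0.26, adjusted p = 0.0404, limma). SEC62 and SEC63, which serve chains that enter after translation, had the smallest rises of the step, 0.54 and 0.37. SEC61A1 shares 5.31% of its exonic bases with RUVBL1 on the opposite strand, and the use of strand in counting is not given in the sources used here.

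Signal peptidase did not follow the channel. SPCS3 (chr4:176319966-176332245, plus strand), an accessory subunit needed for cleavage, was at 25.3 and 29.1 FPKM under sh-NC, against 10.9 and 11.1 under sh-LDB1, and its fall of 1.23 ± 0.08 on the log2 scale passed both limits (adjusted p = 0.000354, limma). SPCS2 was the one gene of the step that rose, from 27.9 and 29.1 to 36.3 and 40.4 FPKM (0.42 ± 0.07, adjusted p = 0.00564, limma). The ratio of SPCS3 to SPCS2 went from 0.907 and 1.00 to 0.302 and 0.273.

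The catalytic subunits of signal peptidase differed in level more than between groups. SEC11A was at 21.5 and 21.2 FPKM under sh-NC, against 17.4 and 17.5 under sh-LDB1 (-0.27 ± 0.04, adjusted p = 0.00482, limma). SEC11C was at 6.88 and 5.26 against 5.33 and 4.44 FPKM, values that overlapped (-0.26 ± 0.14, adjusted p = 0.177, limma). SPCS1 fell by 0.30, and 52.8% of its exonic bases are shared with NEK4 on the opposite strand.

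Oligosaccharyl transferase exists in forms built on either of the catalytic subunits, STT3A, which works beside the channel, or STT3B, which can act on sites passed over. These changed in opposite directions. STT3A (chr11:125591712-125625215, plus strand) was at 27.5 and 28.4 FPKM under sh-NC, against 66.4 and 64.8 under sh-LDB1, and rose by 1.20 ± 0.04 on the log2 scale (adjusted p = 0.000113, limma). STT3B was at 38.8 and 41.5 FPKM under sh-NC, against 24.7 and 24.4 under sh-LDB1, a fall that passed without the fold limit (-0.69 ± 0.05, adjusted p = 0.000495, limma). The ratio of STT3A to STT3B turned from 0.709 and 0.684 to 2.69 and 2.65.

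Subunits that both forms share also moved unequally. DAD1, a small core subunit, was at 89.4 and 85.4 FPKM under sh-NC, against 219 and 216 under sh-LDB1 (1.31 ± 0.04, adjusted p = 0.000107, limma), and became the second most abundant member. RPN2, ribophorin II, was the most abundant gene of the step under sh-NC, at 107 and 119 FPKM, and was at 57.3 and 57.0 under sh-LDB1 (-0.96 ± 0.06, adjusted p = 0.000373, limma). Without sh-NC replicate 1 this fall was 1.04 on the log2 scale and was called. RPN1, its partner by name, rose by 0.43, so that the ratio of RPN1 to RPN2 went from 0.540 and 0.475 to 1.38 and 1.32.

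The remaining subunits rose by less than the fold limit. OST4 changed by 0.77, with 25.2% of its exonic bases shared with AGBL5 on the opposite strand, and DDOST by 0.25. OSTC, found with STT3A, rose by 0.30. Among genes outside the 45, KRTCAP2, also found with STT3A, had a log2 fold change of 0.01 (adjusted p = 0.959, limma). MAGT1 and TUSC3, the alternative partners of STT3B, changed by -0.73 and 0.64.

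**Figure D3:**
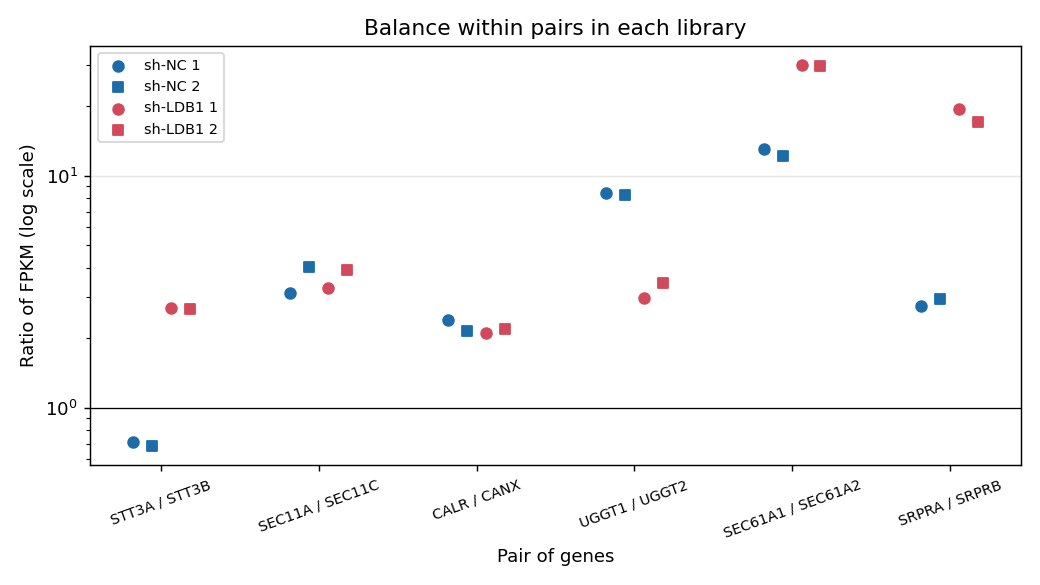
Ratio of FPKM (y axis, log scale) within 6 pairs of related genes in each of the 4 libraries (sh-NC blue, sh-LDB1 red). The STT3A to STT3B ratio lies under 1 in both sh-NC libraries and over 2.65 in both sh-LDB1 libraries, while the ratios of SEC11A to SEC11C and of CALR to CANX overlap between groups.

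In the assembly of the lipid-linked sugar, DPAGT1, ALG1, ALG2 and ALG3 rose. DPAGT1, which places the first sugar on dolichol and shares 17.4% of its exonic bases with C2CD2L on the opposite strand, changed by 0.84, and ALG1, which adds the first mannose, by 0.33. ALG2, the mannosyltransferase that follows, was at 11.7 and 13.6 FPKM under sh-NC, against 27.8 and 28.9 under sh-LDB1 (1.11 ± 0.08, adjusted p = 0.000532, limma), the only call of the step. ALG3, the first mannosyltransferase on the lumenal side, had the highest FPKM of the step, 35.1 and 39.7 against 70.9 and 74.0. By reads under sh-NC, ALG5 stood above ALG3 (2778 and 2454 against 1970 and 2030). The log2 fold change of ALG3 was 0.94 ± 0.07 (adjusted p = 0.000568, limma), and 1.02 without sh-NC replicate 2, which made it a call.

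The glucose and later mannose steps were mixed. ALG6, which adds the first glucose, fell from 2.49 and 2.91 FPKM to 0.977 and 1.23 (-0.82 ± 0.13, adjusted p = 0.00484, limma). At a pseudocount of 0.1 its log2 fold change was -1.22 and it was called lower. ALG8, the next glucosyltransferase, rose by 0.33, and ALG5, which makes the glucose donor, by 0.40. ALG12 rose by 0.70 from a level under 2 FPKM, and 39.1% of its exonic bases lie opposite a long noncoding RNA gene. ALG9 was at 1.51 and 1.26 against 0.787 and 0.800 FPKM, which did not pass (-0.41, adjusted p = 0.0544, limma). It passed in 4 of 13 alternatives, with -0.79 at a pseudocount of 0.01 (adjusted p = 0.0484, limma) and -0.80 with voom on recovered reads (adjusted p = 0.000911, limma), and 24.2% of its exonic bases lie in a readthrough gene on the same strand.

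After transfer, the first trimming enzyme rose and the next fell. MOGS, glucosidase I, was at 24.7 and 22.6 FPKM under sh-NC, against 45.7 and 44.8 under sh-LDB1 (0.91 ± 0.06, adjusted p = 0.000341, limma). GANAB, the catalytic subunit of glucosidase II, fell by 0.45. The ratio of MOGS to GANAB was 0.200 and 0.189 under sh-NC and 0.516 and 0.505 under sh-LDB1.

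UGGT1, which puts a glucose back on misfolded glycoproteins, was at 25.5 and 26.1 FPKM under sh-NC, against 12.9 and 12.2 under sh-LDB1. Its log2 fold change of -0.99 ± 0.05 (adjusted p = 0.00021, limma) lay just short of the fold limit, and was -1.04 at a pseudocount of 0.1, -1.001 without sh-NC replicate 1 and -1.03 without sh-LDB1 replicate 1, each of which made it a call. Its homologue UGGT2 was at 3.05 and 3.16 against 4.34 and 3.54 FPKM (adjusted p = 0.0841, limma). The ratio of UGGT1 to UGGT2 went from 8.37 and 8.24 to 2.98 and 3.44.

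The lectin chaperones had small fold changes. CALR, calreticulin, was the most abundant member in both groups, at 318 and 291 FPKM under sh-NC, against 322 and 326 under sh-LDB1 (0.09 ± 0.06, adjusted p = 0.22, limma). CANX, calnexin, was at 133 and 136 against 153 and 149 FPKM, a rise of 0.17 ± 0.04 (adjusted p = 0.0207, limma). Without sh-LDB1 replicate 1 the adjusted p of CANX was 0.148, without sh-LDB1 replicate 2 it was 0.0997, and without a trend in the limma fit it was 0.0612.

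Promoter windows of 39 of the 45 members, from 250 bases before to 50 after the start site, were matched by symbol in RefSeq (GRCh38.p14). SRPRA, TRAM1, SPCS1, STT3B, RPN1 and MOGS were not matched. The ER stress element, bound by ATF6 with NF-Y in the unfolded protein response, was searched on both strands as CCAAT, any 9 bases and CCACG. It was found in the windows of 3 members, CALR, CANX and ALG12 (7.69%), and in 27 of 35116 windows in the table (0.0769%). These windows are printed because few windows hold the element, with the element in capitals (reverse strand in CALR) and in the direction of the gene, CALR at chr19:12938359-12938658 on the plus strand, CANX at chr5:179698679-179698978 on the plus strand and ALG12 at chr22:49918389-49918688 on the minus strand.
CALR: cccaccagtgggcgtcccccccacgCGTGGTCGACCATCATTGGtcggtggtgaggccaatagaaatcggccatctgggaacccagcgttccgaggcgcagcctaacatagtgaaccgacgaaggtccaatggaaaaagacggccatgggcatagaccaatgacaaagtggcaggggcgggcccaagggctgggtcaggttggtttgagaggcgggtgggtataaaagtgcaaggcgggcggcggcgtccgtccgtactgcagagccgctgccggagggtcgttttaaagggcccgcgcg
CANX: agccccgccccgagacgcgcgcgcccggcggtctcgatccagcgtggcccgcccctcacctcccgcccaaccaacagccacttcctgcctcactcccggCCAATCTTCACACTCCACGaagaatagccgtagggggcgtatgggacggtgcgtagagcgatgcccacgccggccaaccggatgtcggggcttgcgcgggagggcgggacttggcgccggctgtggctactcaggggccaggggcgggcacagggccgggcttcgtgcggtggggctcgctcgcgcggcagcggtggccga
ALG12: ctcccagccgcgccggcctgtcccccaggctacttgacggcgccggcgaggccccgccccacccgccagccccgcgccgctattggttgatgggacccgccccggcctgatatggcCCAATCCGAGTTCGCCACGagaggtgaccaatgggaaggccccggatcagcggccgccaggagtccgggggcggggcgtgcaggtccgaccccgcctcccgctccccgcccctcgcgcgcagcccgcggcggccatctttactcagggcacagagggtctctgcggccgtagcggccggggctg

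The members holding the element had log2 fold changes of 0.09 (CALR, which did not pass), 0.17 (CANX) and 0.70 (ALG12), and none of them was called. For ALG12 the log2 fold change was 0.96 at a pseudocount of 0.1. With voom on recovered reads it was 1.003 and ALG12 was called higher (adjusted p = 3.1e-05, limma). The variant element ATTGG, any base and CCACG was in the window of 0 members. The XBP1 core TGACGTGG was in those of SRP19 and SEC62 (5.13% of members, 0.729% of all windows). The E-box CACGTG was in 5, SSR1, SSR3, SEC11C, DDOST and ALG1 (12.8% against 7.26%), and the GATA site AGATAA in 0, where 10.3% of all windows held it. CCAAT alone, which is also part of the ER stress element, was in 20 (51.3% against 34.6%). A match is a run of letters and not a binding site.

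One pair of windows overlapped. SEC61B and ALG2 are transcribed away from each other on chromosome 9 from start sites 340 bases apart, and their windows share 161 bases. Both genes rose, SEC61B from 54.6 and 48.1 FPKM to 82.6 and 87.3, and ALG2 as given above. The window of SEC61B (chr9:99222032-99222331, plus strand) is printed with the shared bases in capitals.
SEC61B: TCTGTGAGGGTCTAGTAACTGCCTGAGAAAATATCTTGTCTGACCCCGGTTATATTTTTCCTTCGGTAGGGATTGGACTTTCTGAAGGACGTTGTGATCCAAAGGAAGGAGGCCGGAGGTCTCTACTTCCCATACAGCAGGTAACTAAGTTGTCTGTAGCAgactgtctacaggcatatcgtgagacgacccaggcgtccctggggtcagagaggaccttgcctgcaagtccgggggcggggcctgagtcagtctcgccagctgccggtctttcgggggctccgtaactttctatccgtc

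Genes of the same pathway outside the 45 were called at shares near those of all genes. Of 79 found, 73 were tested, with 7 called higher (9.59%, against 9.5% of all genes) and 6 called lower (8.22%, against 10.3%). Without the fold limit 34 rose (46.6%, against 29.9%) and 24 fell (32.9%, against 37.4%), and their median log2 fold change was 0.22. Among the 10 genes that supply sugar donors 8 rose (80%, against 29.9% of all genes) and 2 fell (20%, against 37.4%). GFPT1, the entry enzyme of the hexosamine pathway, was at 12.4 and 13.2 FPKM under sh-NC, against 52.8 and 51.0 under sh-LDB1 (1.94). PGM3 of the same pathway changed by 1.51 and GMPPB, which makes GDP-mannose, by 1.33.

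Among the dolichol genes, DHDDS, a subunit of the enzyme that makes the dolichol chain, rose by 1.66, and NUS1, the other subunit, by 0.89. DPM2, a subunit of the dolichol-mannose synthase, fell from 28.2 and 26.1 FPKM to 9.96 and 10.3 (-1.34). Of the 10 ER lumenal chaperones 7 rose (70%, against 29.9% of all genes) and 2 fell (20%, against 37.4%). HSPA5, the chief chaperone of the ER lumen, was at 183 and 193 FPKM under sh-NC, against 402 and 414 under sh-LDB1 (1.12), and DNAJB9, one of its co-chaperones, changed by 1.97.

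Later glycan processing had calls both ways. MAN2A2, a Golgi mannosidase, was at 18.6 and 19.4 FPKM under sh-NC, against 3.18 and 3.38 under sh-LDB1 (-2.23), and MAN1A1 changed by -1.06. MGAT1, which starts complex glycans, changed by 1.26. NGLY1, which strips glycans from proteins in the cytosol, changed by -1.02. Of the 17 genes of other routes of membrane insertion, 2 were called lower (11.8%, against 10.3% of all genes), EMC1 (-1.35) and UBL4A (-1.15). Called higher were 0 (against 9.5%). Without the fold limit 5 rose (29.4%, against 29.9%) and 6 fell (35.3%, against 37.4%).

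**Figure D4:**
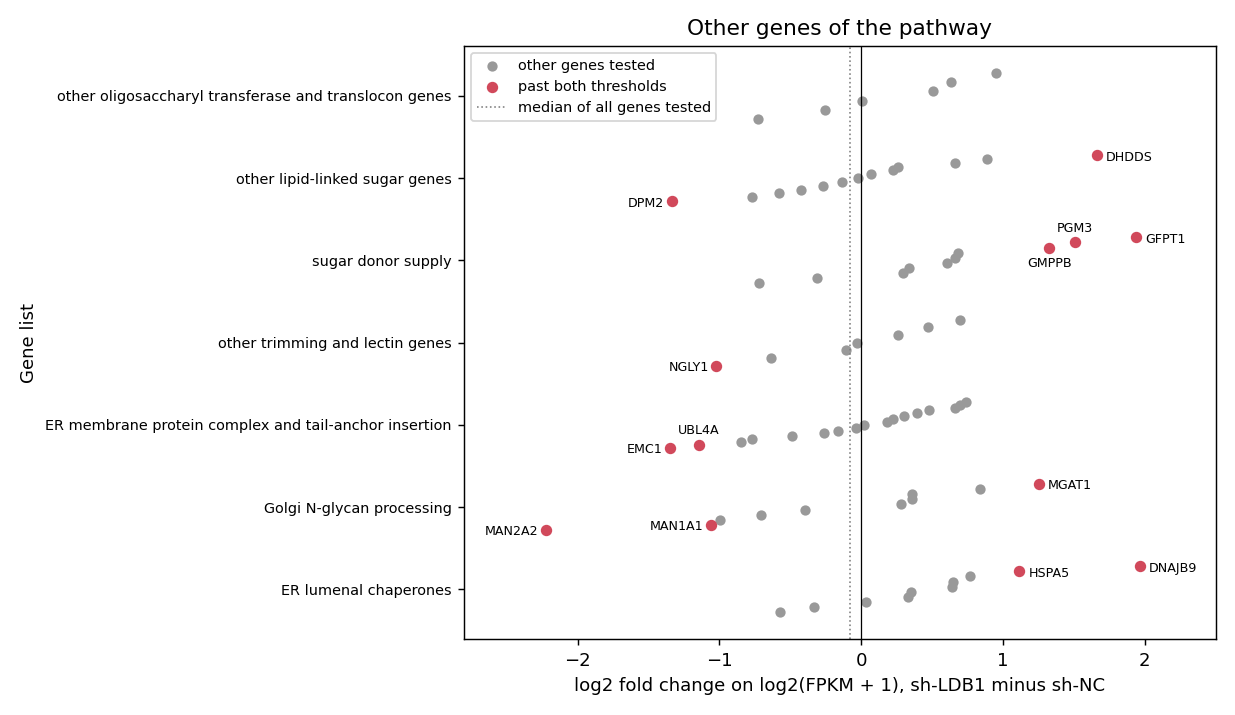
Log2 fold change (x axis, sh-LDB1 minus sh-NC on log2(FPKM + 1)) of the 73 tested genes of the pathway outside the 45, by list. Red points passed both limits, 7 to the right and 6 to the left, and the dotted line is the median of all genes, -0.08.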

How the data were processed

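RNA-seq of 4 libraries of cells labelled NB4 (2 sh-NC, 2 sh-LDB1) was used. The authors deposited one table of FPKM, with 1 column per library and 0 columns of no sample. The submitters' processing notes name HISAT2 2.0.5 and hg38, and the study's methods name DESeq2 for its own calls. The annotation, counting tool and use of strand are not given in the sources used here. Groups were taken from the sample titles. The members and gene lists were chosen with earlier results of these data known.

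Genes with a mean of 1 FPKM or more were tested on log2(FPKM + 1) with limma 3.58.1 in R 4.3.3 (eBayes with trend), with Benjamini-Hochberg adjustment over 13300 genes. Whole reads were recovered from the FPKM for 99.91% of genes (within 0.01 of a whole number), and the totals rest on GENCODE gene lengths. Both steps were tested on simulated data. The deposited values were already scaled between libraries: the median ratio to the geometric mean was 1.01 in all 4.

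Full values are given for called members, for the largest rise, largest fall and highest mean of each step, and for pairs of related genes. For genes outside the 45, those called are given. Other genes named beside them were chosen after their values were seen. Alternatives were the pseudocount, the filter, the scaling, the test, a replicate block, and leaving out each library. Figures were drawn with matplotlib 3.10.9.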

Additional observations from a re-analysis of the deposited data

How the results depend on the processing

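With 2 libraries a group, residual spread rests on few values, and reads of overlapping genes were not separated. The count of members called lower was 4 rather than 2 at a pseudocount of 0.1, at 0.01 and with voom on recovered reads. Each added ALG6 and UGGT1. Of all genes 14.1%, 14.4% and 14.5% were called lower there, against 10.3%. With voom ALG12 was added to the members called higher, where 13.2% of all genes were. Without sh-NC replicate 1 the log2 fold changes of RPN2 and UGGT1 were -1.04 and -1.001. Scaling by total reads gave 11 members called higher and a median of 0.51. It moved the median of all genes from -0.08 to 0.03 and called 11.3% of them higher and 8.11% lower. Scaling by the median of ratios over expressed genes gave 10 members called higher, where 11% of all genes were, and a member median of 0.49. Leaving out 1 library gave a member median of 0.34 to 0.42. The replicate numbers share only a number (correlation of replicate differences 0.02). With the replicate block 7 members were called higher and 2 lower, where 9.58% and 10.4% of all genes were. Without the fold limit 29 rose and 12 fell, where 29.2% and 36.2% of all genes did. The addition was SEC11C (adjusted p = 0.0461, limma). Of 585 single member values over 13 alternatives, 562 kept their direction and side of the adjusted p threshold, 10 lost it, 13 gained it and 0 reversed. SRP19, SEC63, SPCS1, DDOST, ALG1, ALG8 and CANX lost it without sh-LDB1 replicate 2 (adjusted p from 0.0537 to 0.0997, limma), ALG1 without sh-NC replicate 2 (0.0516, limma) and CANX without sh-LDB1 replicate 1 (0.148, limma) and without a trend in the fit (0.0612, limma). The cause of these changes was not tested.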

Other observations

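The members lie on 20 chromosomes, with 8 on chromosome 3 and 7 on chromosome 11. SRPRA and STT3A, both called higher, are 637723 bases apart on chromosome 11, a neighbourhood chosen after their values were seen. The 5 tested genes between them had a median log2 fold change of -0.20, with 0 higher and 2 lower past the adjusted p (limma). Of all genes tested 29.9% were higher and 37.4% lower at that threshold. The lower genes were CHEK1, at 21.2 and 21.4 FPKM under sh-NC and 8.51 and 8.26 under sh-LDB1 (-1.25), and RPUSD4 (-0.58).

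Processed copies of members carry near-identical sequence, and how reads were divided between them was not tested. SRP9P1 was at 4.74 and 4.16 FPKM under sh-NC, against 1.67 and 2.03 under sh-LDB1. SPCS2P4 was at 16.2 and 4.78 FPKM under sh-NC, against 21.7 and 7.76 under sh-LDB1, differing more between libraries of a group than between groups, while SPCS2 itself was at 27.9 and 29.1 against 36.3 and 40.4.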
